A study of Mus musculus with 6 samples.

Results

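The fibulins, fibrillins and elastic fibre genes are 10 genes of the matrix fibres that give tissue its recoil: Fbln1, Fbln2, Fbln5, Efemp1, Efemp2, Fbn1, Fbn2, Eln, Lox and Mfap5. Members were every probe set whose gene symbol in the platform annotation was 1 of these names, which gave 17 of the 45101 probe sets on the array and 8 of the 18193 genes named there. Efemp2 and Fbn1 were not analysed here. Expression was measured on 6 Affymetrix arrays, 1 per RNA sample, in 2 groups of 3. The tumor group held granulosa cell tumors of Smad1/5/8 mutant mice, which had no treatment; the design text calls these tumors independent. Smad1, Smad5 and Smad8 (now Smad9) carry signals of bone morphogenetic protein (BMP) receptors to the nucleus. The sources used here give neither how and in which cells the genes were mutated nor the strain, sex and age of the tumor mice. The other group held granulosa cells, the somatic cells around the oocyte, isolated from wild-type C57BL/6J;129S5/SvEvBrd females aged 21 days. These females had received PMSG, a gonadotropin that drives follicle growth, 44 to 46 hours earlier, and each sample pooled 2 to 3 females. The labels do not say that the 3 pools came from separate litters or days, so the p-values below measure the spread between these samples, part of which may be technical.

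Elastic fibres are built on a scaffold of microfibrils made of fibrillins, to which small glycoproteins such as the Mfap5 product attach. Tropoelastin, the product of Eln, is deposited on this scaffold with the help of fibulins, and lysyl oxidase, the product of Lox, cross-links it into an insoluble core. Fibulins are secreted glycoproteins with calcium-binding EGF-like repeats, and several of them also bind basement membranes and proteoglycans. In the ovary these proteins lie in the matrix of follicle walls, stroma and vessels.

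Of the 8 measured genes, Fbln1 and Fbn2 were lower in tumors and Fbln5 and Fbln2 were higher. Efemp1, Eln, Lox and Mfap5 did not pass the test. Fbln5 had the largest change, from a mean signal of 316 ± 44.4 (SD, n = 3) in wild-type cells to 2336 ± 209 in tumors. Fbn2 went from 4074 ± 1535 to 1139 ± 351 and Fbln1 from 10427 ± 1646 to 3194 ± 441. The call was a limma p, adjusted by Benjamini-Hochberg over all 11611 tested genes, under 0.05. At that threshold 27.2% of all tested genes were called, 14.5% as higher and 12.6% as lower in tumors. The members had 4 of 8 called, 2 in each direction, and their median log2 fold change was 0.37, where that of all tested genes was -0.0049. No test of the members as a list was made.

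The promoters of the 3 fibulin genes that were called are shown because 1 of these relatives fell while the other two rose. Windows from the RefSeq promoter table were taken for 4 of the measured members (Fbln1, Fbln2, Fbln5 and Efemp1). Members on 1 chromosome were left out by rule, so a missing window does not mean that a gene has no entry. Each sequence covers the 250 bases before the gene's most upstream start in that table, 5′ to 3′ on the gene's own strand, in build GRCm38.p6. Capitals mark each GTCT on either strand (AGAC on the strand shown), a motif that Smad proteins can bind, and each GGCGCC, a GC-rich motif bound by the BMP-activated Smads.
Fbln1, chr15:85205699-85205948, plus strand: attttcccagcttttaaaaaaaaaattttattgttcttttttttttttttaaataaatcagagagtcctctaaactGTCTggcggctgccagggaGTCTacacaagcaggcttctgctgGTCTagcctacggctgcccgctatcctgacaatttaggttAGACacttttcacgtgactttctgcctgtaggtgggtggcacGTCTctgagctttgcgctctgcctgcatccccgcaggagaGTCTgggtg
Fbln2, chr6:91212514-91212763, plus strand: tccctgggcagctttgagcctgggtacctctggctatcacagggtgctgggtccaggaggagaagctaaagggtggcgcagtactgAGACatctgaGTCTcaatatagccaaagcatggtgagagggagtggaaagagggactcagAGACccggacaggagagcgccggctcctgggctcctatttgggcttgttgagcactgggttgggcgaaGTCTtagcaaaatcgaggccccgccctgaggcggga
Fbln5, chr12:101819120-101819369, minus strand: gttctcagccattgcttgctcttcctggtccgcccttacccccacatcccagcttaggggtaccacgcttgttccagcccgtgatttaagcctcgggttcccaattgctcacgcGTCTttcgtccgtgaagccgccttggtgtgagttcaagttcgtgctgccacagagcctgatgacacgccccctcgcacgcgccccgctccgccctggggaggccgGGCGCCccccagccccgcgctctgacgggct

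GTCT occurred 6 times in the Fbln1 window, 4 times in that of Fbln2 and 1 time in that of Fbln5, counted on both strands. It was present in 82.9% of the 32851 promoter windows of this length, with a median of 2 matches. GGCGCC, which reads the same on both strands, occurred 1 time in the Fbln5 window and 0 times in the other two, and was present in 9.59% of all windows. The E-box CANNTG, bound by the helix-loop-helix factors that Id proteins inhibit, occurred 1 time in each of the 3, as in 66.2% of all windows; in Fbln2 it shares a letter with an AGAC match. The GC box GGGCGG occurred 0 times in Fbln1, 1 time in Fbln2 and 2 times in Fbln5, and in 32.7% of all windows, while TATAAA occurred 0 times in the 3 and in 12.4% of all windows, both counted on both strands. The G and C content was 46.4% in Fbln1, 58.8% in Fbln2 and 65.2% in Fbln5. These matches describe letters and show neither binding nor its absence.

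The arrays had equal trimmed mean signals of 500 in the deposited values, and each array had 22599 to 25057 probe sets at a signal of 100 or more. The groups differed in tissue, hormone priming, storage of the tissue and signal software as well as in genotype, and these cannot be told apart. As a measure of RNA quality, the Actb control probe sets at the 3' and 5' ends had a log2 ratio that ran from 0.328 to 0.669 in wild-type samples and from 0.570 to 0.966 in tumors; its part in the results was not tested. The same ratio of Gapdh overlapped between the groups, at -0.455 to -0.324 and -0.469 to -0.244. Of the granulosa cell markers, Inha (29873 to 49454), Gja1 (27775 to 35578) and Fst (8912 to 25117) were bright on all 6 arrays. So were Hsd17b1 (8849 to 23788), Nr5a2 (8271 to 18054), Foxl2 (6439 to 11642) and Amhr2 (5733 to 10775). Of these, Gja1 and Amhr2 overlapped between the groups, and the others were lower in every tumor than in every wild-type sample. Other mean signals went from 26368 to 687 in Inhba, from 33400 to 2139 in Inhbb and from 5686 to 667 in Fshr in tumors. Nr5a1 went from 2387 to 1127, while Amh rose from 789 to 2460 and Wt1 from 458 to 2255. Scaled to the bacterial controls of the hybridisation mix instead, the median log2 change of all genes was -0.9997 and directions below are relative to the array mean. Under that scaling Fbln1 and Fbn2 were still called lower and Fbln5 higher, Fbln2 was not called (log2 fold change 0.15, limma adjusted p = 0.698), and the values of Efemp1, Eln, Lox and Mfap5 lay below 0, with Mfap5 called (-0.80, limma adjusted p = 0.0407).

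**Figure D1:**
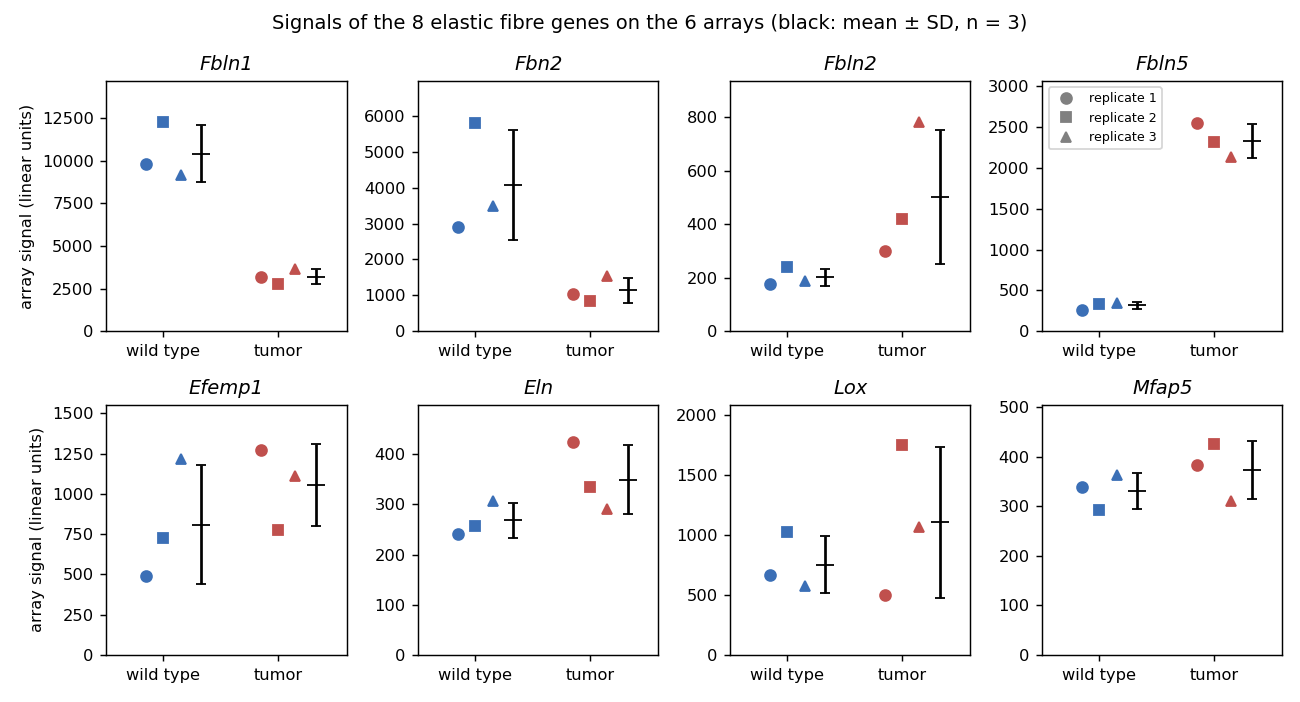
Linear array signal of the 8 measured genes in 3 wild-type samples (blue) and 3 tumors (red), with symbols for replicates and black bars for mean ± SD. The groups do not overlap in Fbln1, Fbn2, Fbln2 and Fbln5, and overlap in Efemp1, Eln, Lox and Mfap5; Lox ranged from 499.4 to 1752 among the tumors.

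Fbln1 encodes fibulin-1, a fibulin of basement membranes and elastic fibres that also binds versican and other matrix proteins. Its brightest probe set read 9821, 12290.4 and 9169 in wild-type cells, against tumor values of 3165, 2767 and 3649. Every tumor lay below every wild-type sample, and the signal stayed well above background in all 6 samples. On the log2(signal + 32) scale, on which all fold changes here are given and which understates changes of dim genes, Fbln1 fell by 1.69 (SE 0.18; adjusted p = 0.00137 in limma). The second probe set read 2665, 4554 and 2710 against 862, 896.4 and 913.7. Among the tumors that probe set varied little, with a highest value 1.06 times the lowest, and it changed by -1.81 on that scale (SE 0.23; adjusted p = 0.00276 in limma with each probe set tested). The dimmest, at 110.1, 168.4 and 95.7 against 38.5, 51.2 and 21.1, was too dim to be tested, and its groups did not overlap either. The probe sets of Fbln1 thus all read lower in tumors.

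Fbln2 encodes fibulin-2, a larger relative of fibulin-1 found in vessel walls and basement membranes. Its signals of 178, 238 and 186.9 in wild-type cells compare with 301.1, 419.7 and 781.8 in tumors, so the groups did not overlap, although all values were low and tumor replicate 3 stood above the others. Its change of 1.10 on the log2 scale (SE 0.32) had an adjusted p of 0.042 in limma. The call did not hold when any of the wild-type samples or tumor replicate 2 was left out, with adjusted p from 0.0207 to 0.128 over the fits without 1 sample, and also with no signal filter (0.0812). A further probe set of Fbln2 stayed below 46 on all arrays and was not tested.

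Fbln5 encodes fibulin-5, which binds tropoelastin and integrins and is needed for elastic fibres to form. It read 265.3, 335 and 347.8 in wild-type samples and 2552, 2319 and 2135 in tumors. The lowest tumor value was far above the highest wild-type value, and the tumors differed little among themselves, the highest being 1.20 times the lowest. This was a rise of 2.77 on the log2 scale (SE 0.16; adjusted p = 0.000203 in limma), or 6.82-fold. It ranked 90th from the top among the 11611 tested genes. A second Fbln5 probe set read below 18 on every array and gave no information on the gene.

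Efemp1 encodes fibulin-3, a short fibulin of connective tissue. It read 490.1, 723.8 and 1214 in wild-type samples and 1274, 778.4 and 1111 in tumors, and these ranges overlapped. On the log2 scale the difference of 0.43 had a 95% interval from -0.36 to 1.22 (adjusted p = 0.374 in limma). The wild-type samples themselves differed 2.48-fold between lowest and highest, where the median over all tested genes was 1.30. The interval includes a 2-fold rise and a small fall.

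**Figure D2:**
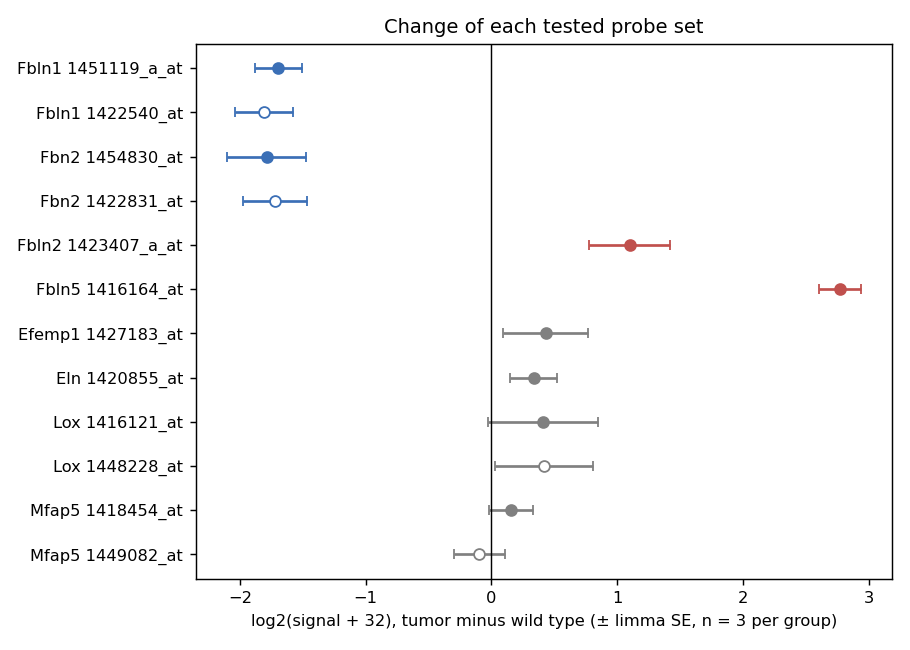
Log2 fold change, tumor minus wild type, of the 12 tested probe sets, with limma standard errors; filled points stand for their gene and open points are further probe sets. Blue points were called lower, red points higher and grey points neither at an adjusted p under 0.05, and the 2 tested probe sets each of Fbln1, Fbn2 and Lox lie close together.

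Fbn2 encodes fibrillin-2, a microfibril backbone protein most abundant in developing tissue. Its brighter probe set read 2919, 5816 and 3486 in wild-type samples and 1036, 852 and 1530.5 in tumors. All tumors lay below all wild-type samples, and wild-type replicate 2 stood above its group. Fbn2 fell by 1.79 on the log2 scale (SE 0.31; adjusted p = 0.00751 in limma). The other probe set read 1684.5, 2722 and 1934 against 568.9, 479.5 and 809.8, which is -1.72 on the log2 scale (SE 0.26). In both, tumor replicate 3 was the highest and replicate 2 the lowest, the same order as in the brightest Fbln1 probe set, but not as in the other Fbln1 probe sets.

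Mfap5 encodes a small microfibril glycoprotein also called MAGP-2. It read 338.5, 291.6 and 362.3 in wild-type samples and 383.7, 425.6 and 310 in tumors, and the groups overlapped. The difference of 0.15 on the log2 scale had a 95% interval from -0.24 to 0.55 (adjusted p = 0.529 in limma). A second Mfap5 probe set differed by -0.10 (SE 0.20), so the signs differed and neither probe set passed. Under trimmed-mean scaling the interval does not include a 2-fold change in either direction. Under hybridisation control scaling Mfap5 was called lower (-0.80, SE 0.35, limma adjusted p = 0.0407). Under that scaling 7801 of 11787 tested genes were called lower, and the median of all genes was -0.9997.

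Eln, the tropoelastin gene, read 240.9, 257 and 307.7 in wild-type samples and 424.3, 334.2 and 290.8 in tumors. Tumor replicate 3 lay inside the wild-type range. Tumors differed by 0.34 on the log2 scale (95% interval -0.09 to 0.76; adjusted p = 0.206 in limma). The second Eln probe set stayed below 100 on every array, at 13.7 to 22.5 in wild-type samples and 21.3 to 92.7 in tumors, and was not tested. Neither probe set showed Eln as bright in either group.

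Lox, the lysyl oxidase gene, varied more among the tumors than the other 7 genes did. It read 666.2, 1024 and 572.4 in wild-type samples and 499.4, 1752 and 1066 in tumors. Tumor replicate 1 lay below every wild-type sample and the other two tumors above every one. The tumors spanned 3.51-fold, where the median span over all tested genes was 1.40. With this spread, the log2 difference of 0.41 had a 95% interval from -0.62 to 1.44 (adjusted p = 0.522 in limma). A second probe set showed the same order, at 434.5, 599.6 and 402.1 against 338.1, 1073 and 714.9, a difference of 0.42 (SE 0.39). The remaining one stayed below 42 on all arrays.

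In all, 12 of the 17 member probe sets passed the minimum of a signal of 100 on at least 3 arrays, and each of the 8 genes had at least 1. When each of 21001 probe sets was tested, 24.1% were called, 11.7% higher and 12.4% lower. Of the 12 member probe sets, 2 were called higher and 4 lower. The 4 were 2 of Fbln1 and 2 of Fbn2, so they repeat the same 2 genes. Groups did not overlap in 4 of the 8 genes, 2 with the tumors above and 2 below. This held for 46.3% of all tested genes (23.7% above and 22.6% below), so the count is close to the background. Without 1 sample at a time, Fbln1, Fbn2 and Fbln5 remained called in each of the 6 fits, with adjusted p up to 0.00848, 0.0241 and 0.00225, and log2 fold changes of -1.79 to -1.57, -2.02 to -1.50 and 2.66 to 2.84.

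The difference between 2 genes on the same array does not move with array scaling on the log2 scale, apart from the pseudocount. The level of that difference depends on the probes, so only its change between groups is read. Fbln1 minus Fbln5 was 5.05, 5.07 and 4.60 in wild-type samples and 0.31, 0.25 and 0.76 in tumors. The change of -4.47 was many times the SD within groups (0.27 and 0.28, n = 3; exact 2-sided permutation p = 0.1, which is the smallest that 3 against 3 samples allow). Fbln1 minus Fbln2 changed by -2.80, from 5.49 ± 0.08 to 2.69 ± 0.55 (SD, n = 3), again with the groups apart. Against Efemp1, Eln, Lox and Mfap5 the change was -2.13, -2.03, -2.10 and -1.85, with the groups apart each time and an exact permutation p of 0.1. Fbln1 itself changed by -1.69 and these members by 0.15 to 0.43, so these differences mostly repeat the Fbln1 fall. Fbln1 minus Fbn2 was 1.40 ± 0.33 in wild-type samples and 1.49 ± 0.23 in tumor samples, a change of 0.09 with overlapping groups (exact permutation p = 0.7, n = 3 per group). The 7 pairs gave Benjamini-Hochberg values of 0.117 for 6 pairs and 0.7 for Fbn2, so none could pass the threshold in this design. The last value does not show that Fbln1 and Fbn2 changed alike.

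**Figure D3:**
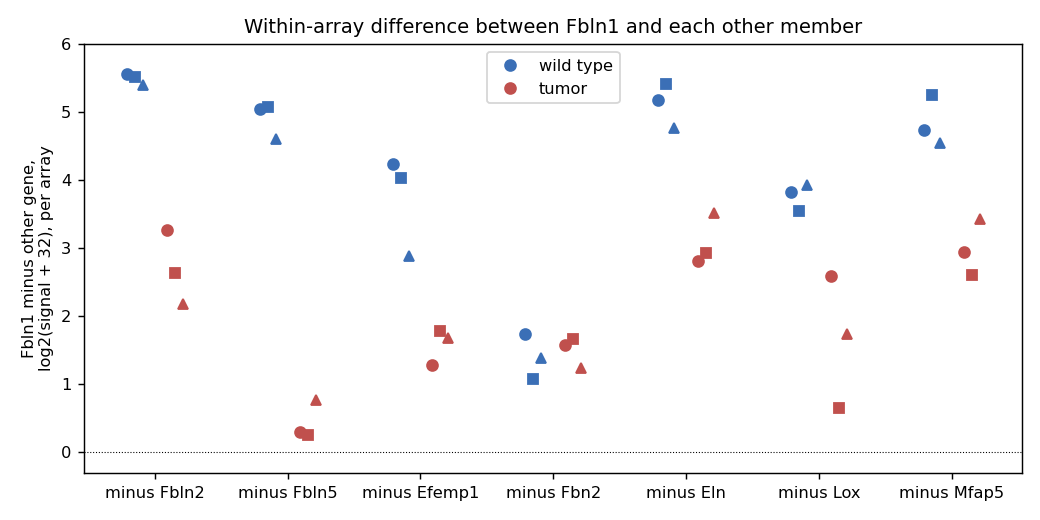
Fbln1 minus each other measured gene on the same array, in log2(signal + 32) units, for 3 wild-type samples (blue) and 3 tumors (red); symbols are replicates 1 (circle), 2 (square) and 3 (triangle). The tumors lie below the wild-type samples for 6 genes, with a change of -4.47 for Fbln5, and overlap them for Fbn2.

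Other genes of elastic fibre assembly, anchoring and breakdown were taken from 6 lists with 61 entries, of which 45 were tested. Of these, 17 were higher in tumors, where 14.5% of all tested genes were, and 4 were lower, where 12.6% were. The other 24 did not pass, and the median log2 fold change of the 45 was 0.82. When each sample was left out in turn, 13 to 22 were higher and 1 to 6 lower; the lower count dropped to 2 without wild-type replicate 2 and to 1 without wild-type replicate 3. Scaled to the hybridisation controls, 9 were higher and 18 lower, where 377 of 11787 tested genes were higher and 7801 lower.

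Among fibulin relatives and microfibril glycoproteins, 4 of 12 tested genes rose, 1 fell and 7 did not pass (median log2 fold change 1.12). Bgn, a small proteoglycan gene, rose from 656 ± 171 to 6903 ± 2788 (SD, n = 3), or by 3.27 on the log2 scale (SE 0.37; adjusted p = 0.00158 in limma). Vcan, the gene of versican, a proteoglycan that fibulins bind, fell from 8084 ± 591 to 1257 ± 1439 (log2 scale -3.25, SE 0.68; adjusted p = 0.0144 in limma), and tumor replicate 3, at 2918, stood far above the other two at 398.5 and 455.5. Emilin1 and Emilin2, chosen with their values known, encode elastic fibre glycoproteins and rose by 1.99 (SE 0.21) and 2.01 (SE 0.26). Fbln7, a fibulin relative, did not reach 100 on any wild-type array and read 676.1, 206.2 and 106 in tumors (limma adjusted p = 0.0599), also chosen after its values were seen. Mfap2, the closest relative of Mfap5, read 2218 to 4462 in wild-type samples and 1897 to 4225 in tumors (limma adjusted p = 0.686), chosen likewise.

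Of 7 genes of latent TGF-beta binding proteins, which resemble fibrillins in sequence, and of TGF-beta ligands, 1 rose, 0 fell and 6 did not pass (median 0.64; 3 higher and 1 lower at an unadjusted p under 0.05 in limma). Ltbp4, whose product helps fibulin-5 to deposit elastin, read 367.7, 574.2 and 472.6 in wild-type samples and 2445, 1682.5 and 853.7 in tumors. It rose by 1.65 on the log2 scale (SE 0.37; adjusted p = 0.018 in limma), and the call was lost without wild-type replicate 1 (0.0696), wild-type replicate 3 (0.0532) or tumor replicate 2 (0.0502).

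Among lysyl oxidase relatives and genes that act on Lox, 2 of 6 tested genes rose and 4 did not pass, with a median log2 fold change of -0.20. Postn, the gene of periostin, which promotes activation of lysyl oxidase, read 105.3, 80 and 162.9 against 1122, 1236 and 3385 (3.57 on the log2 scale, SE 0.43). Tumor replicate 3 was the highest in Postn, as it was in Fbln2. Pcolce, an enhancer of the protease that processes procollagen, rose by 1.37 (SE 0.24; adjusted p = 0.00727 in limma). Among the genes of this list that did not pass, Loxl1, a lysyl oxidase relative that acts on elastin, differed by -0.55 (adjusted p = 0.0996 in limma) and was likewise chosen with its values known.

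Of 6 tested genes of microfibril-associated ADAMTS proteases and ADAMTS-like proteins, 1 rose, 1 fell and 4 did not pass (median -0.13). Adamts6 fell from 659 ± 222 to 237 ± 95.2 (SD, n = 3), or by 1.39 on the log2 scale (SE 0.34; adjusted p = 0.023 in limma), and its other probe set had -0.34 and was not called. Adamtsl2, whose product binds fibrillin, rose by 1.41 (SE 0.41; adjusted p = 0.0438 in limma). The Adamts6 call was lost without wild-type replicate 2 or 3 (limma adjusted p = 0.0661 and 0.0534) and with the mean over probe sets (0.0569). The Adamtsl2 call was lost in every fit without 1 sample except that without tumor replicate 3, with adjusted p up to 0.113, and also with a pseudocount of 1 (0.0541) and with no signal filter (0.0827).

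All 5 tested genes of elastin-degrading proteases were called, 4 higher and 1 lower in tumors (median 2.00), where 27.2% of all tested genes were called. Mmp7, Mmp9, Mmp12 and Elane did not reach the signal minimum. Mmp2, a gelatinase gene, read 314.3, 467.7 and 365.9 in wild-type samples and 2024, 2560.0 and 2015 in tumors (2.44 on the log2 scale, SE 0.19; adjusted p = 0.000509 in limma). Cela1, an elastase gene, rose by 2.11 (SE 0.35). Ctsl, a lysosomal cathepsin gene, fell from 29156 ± 1869 to 16867 ± 2722 (SD, n = 3), or by 0.80 on the log2 scale (SE 0.17; adjusted p = 0.0146 in limma), and its other probe set fell by 3.14; the call was lost without wild-type replicate 3 (limma adjusted p = 0.0534).

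Among 9 tested integrin chains whose receptors bind fibrillins, fibulins or their partners, 5 rose, 1 fell and 3 did not pass (median 1.03). Itga9 rose from 685 ± 138 to 2332 ± 364 (SD, n = 3), or by 1.73 on the log2 scale (SE 0.20; adjusted p = 0.00172 in limma). Itgb5, a partner of the alpha v chain, rose by 1.20 (SE 0.17). Itgb1, the common beta chain, fell by 0.58 (SE 0.14; adjusted p = 0.0232 in limma), but its 3 probe sets ranged from -0.58 to 0.09, and the call did not hold when any wild-type sample or tumor replicate 1 was left out, with no signal filter (0.060) or with the mean over probe sets (0.345).

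**Figure D4:**
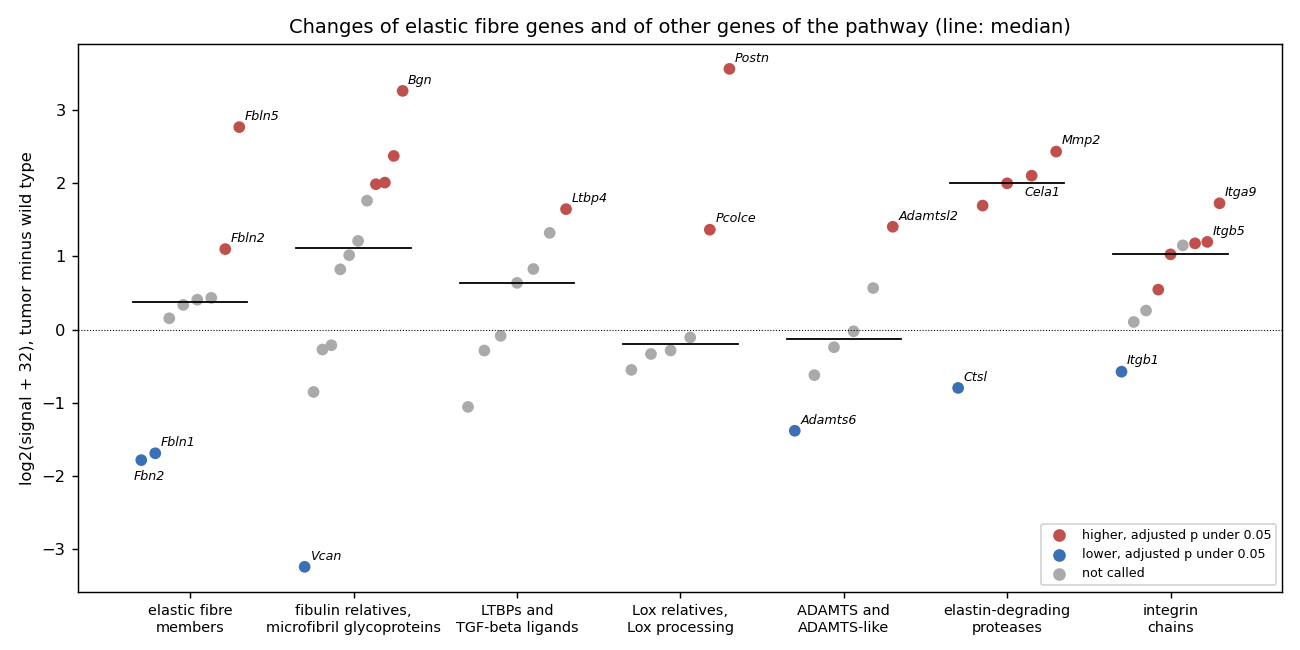
Log2 fold change, tumor minus wild type, of the 8 measured members and of 45 further genes in 6 lists; red points were called higher, blue points lower and grey points neither, and black lines are medians. The members have 2 red and 2 blue points, while the protease list has 4 red and 1 blue and no grey point.

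Markers of other cell types also differed between the groups, where 14.5% of all tested genes were called higher in tumors and 12.6% lower. Fibroblast and stroma markers were higher in 12 of 13 tested genes, and their summed signal was 19644 to 23379.9 in wild-type samples and 58524 to 85844 in tumors. Smooth muscle and pericyte markers were higher in 12 of 12 (sums of 6931 to 8939 and 25859.6 to 44878), with Des and Cspg4 below 100 on all wild-type arrays. Endothelial markers were higher in 8 of 13 (2340 to 3312 and 7441 to 15156.5), with Flt1, Sox17 and Vwf below 100 on all wild-type arrays, and macrophage and myeloid markers in 10 of 10 (2110 to 2574 and 13108 to 16028), with Ptprc below 100 there. Fibroblasts, smooth muscle and endothelium can make fibulins, and the part of these cells in the higher Fbln5 and Fbln2 signals was not tested. Within the tumors the fibroblast and stroma sum was 74479, 85844 and 58524, and the smooth muscle and pericyte sum 44878, 44324 and 25859.6. Both sums and Fbln5 were lowest in replicate 3, as were the macrophage and myeloid, granulosa and ovarian surface epithelium sums. Fbln5 had the order of the smooth muscle and pericyte sum and of the macrophage and myeloid sum (16028, 13180 and 13108). The endothelial sum was lowest in replicate 1, and Fbln2 was highest in replicate 3.

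The granulosa and oocyte marker lists had lower summed signals in tumors. Fbln1 and Fbn2 were also lower, and the part of these cells in those results was not tested. Granulosa markers were lower in 6 of 13 tested genes and higher in 2 (sums of 212649 to 244165 and 113833 to 126861). Oocyte markers were lower in 5 of 6 (990.4 to 1551 and 383.7 to 617.4), with Zp1, Zp2, Zp3 and Dazl below 100 on all tumor arrays. Theca and interstitial markers were higher in 2 and lower in 2 of 6, with overlapping sums (57664 to 70133 and 31734 to 73424). Ptch1 and Gli1 were higher, with Gli1 below 100 on all wild-type arrays, and Cyp17a1 and Cyp11a1 were lower. Ovarian surface epithelium markers were higher in 0 and lower in 1 of 8 (1 and 3 at an unadjusted p under 0.05 in limma). Their sums also overlapped (3598 to 5503 and 2582 to 4709). In bulk RNA, fewer cells of a type and less RNA per cell cannot be told apart.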

How the data were processed

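The authors deposited 1 linear intensity per probe set and array, made with MAS5 for wild-type arrays and GCOS for tumor arrays per the submitters' processing notes, with no version given. Neither detection calls nor scanner images were used here. Each array was scaled again to a trimmed mean of 500, with 2% left out at each end. Of 45101 probe sets, 34945 carried 1 gene symbol in GEO's platform annotation, 932 several and 9160 none; RefSeq identifiers of GRCm38.p6 changed 0 symbols. A probe set passed where 3 or more arrays reached a signal of 100, and the passing probe set with the highest mean stood for its gene. Values were tested as log2(signal + 32) 2-sided with limma 3.58.1 (lmFit, then eBayes; R 4.3.3), adjusted by Benjamini-Hochberg over all tested genes. The fit was tested on simulated data. The same fit was run over all passing probe sets, and SciPy 1.17.1 gave the exact permutation tests. The 3 arrays per group limit the precision. Members and lists were chosen with earlier results of these data known. Besides every member, the genes named from each list were the 2 called with the largest change and the called gene with the largest opposite change. Alternatives covered scaling, pseudocount, signal minimum, probe set rule, variance model, a replicate block and leaving out each sample. Same-numbered samples did not deviate together (correlations of -0.045, 0.028 and 0.09), so the numbers were not taken to pair them.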

Additional observations from a re-analysis of the deposited data

How the results depend on the processing

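Fbln1, Fbn2 and Fbln5 kept their direction and call under all 16 alternatives. The count of members called higher was 1 in place of 2 under hybridisation control scaling and with no signal filter, and 1 to 2 without 1 sample; the count called lower was 2 in each of the latter fits. Of the other pathway genes, hybridisation control scaling gave 9 higher and 18 lower in place of 17 and 4, the mean over probe sets gave 2 lower, and leaving out 1 sample gave 13 to 22 higher and 1 to 6 lower. Scaling to these controls turned Efemp1 to -0.57, Eln to -0.60, Lox to -0.61 and Mfap5 to -0.80, with the median of all genes at -0.9997, and ended the calls of Ltbp4, Pcolce, Adamtsl2, Itga9 and Itgb5. Under it, 377 of all tested genes were higher and 7801 lower in place of 1686 and 1468. Fbln1 minus Fbn2 changed by -0.069 in place of 0.093 without wild-type replicate 2, and by -0.069 to 0.26 over the fits without 1 sample. For all genes, the calls without 1 sample ranged from 866 to 1704 higher and from 662 to 1409 lower. The numbers of the titles as a replicate block left 2 members higher, 2 lower and 17 and 5 other pathway genes, and changed no call of a gene named by the rule; the largest same-number correlation was 0.09. Of the 17 member probe sets, 5 were too dim to be tested. The cause of these shifts was not tested.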
